A study of Mus musculus with 40 samples.

Results

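Kidneys of mice given human bone marrow mesenchymal stromal cells (BM-MSCs) after ischaemia-reperfusion injury (IRI) were compared with kidneys given the same injury and no cells, labelled AKI for acute kidney injury. The comparison took 8 of the 40 libraries of the series, BM 1 to 4 and AKI 1 to 4, chosen by their labels alone. All were total RNA of whole kidney from C57bl/6-wt mice, in which the renal blood supply was clamped and released. The cells were human, were grown in DMEM-low glucose with serum, and were given as soon as blood flow returned, under the anaesthesia of the surgery. AKI kidneys are labelled as taken 6 h after reperfusion, and the labels of the BM-MSC kidneys give no time. Dose, route, donor, age and sex are not given in the sources used here. The labels do not say that replicates were separate animals, so p-values speak only of the variation among the libraries at hand, part or all of which may be technical. Uninjured kidneys (Control) and kidneys given umbilical cord MSCs (UC-MSC), with 4 libraries each, stand beside them as references. The series title names mitochondrial transfer from MSCs through connexin 43, oxidative stress, inflammation and PGC1a, and the design asks for the right time window of the treatment.

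Reperfusion floods the tubular epithelium with reactive oxygen species. Cells answer with the NRF2 programme of antioxidant and detoxifying enzymes, the ATF4 programme of amino acid and protein stress, heat shock chaperones and immediate early transcription factors. The straight (S3) part of the proximal tubule, which lives on fatty acid oxidation at low oxygen tension, suffers most, and surviving tubule cells take on an injury state marked by Sox9 and keratins and may divide. MSCs are known to release paracrine factors and to hand mitochondria to stressed cells, and PGC1a, encoded by Ppargc1a, drives mitochondrial biogenesis. Reads were counted on mouse genes, so human transcripts of the injected cells were not measured as such. In whole tissue, fewer cells of a type and less RNA per cell cannot be told apart.

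Some features of the libraries touch all of the results. Over the names analysed, AKI libraries held 15067317 to 18364059 counts and BM-MSC libraries 15225727 to 18057722. The deposited table repeats lines of some names, and how the repeats vary shows which columns were joined together. Of 33 names whose repeats vary in both BM-MSC and AKI columns, 0 vary in the same lines, against 27 of 33 for BM-MSC and Control and 28 of 33 for BM-MSC and UC-MSC. The repeats of the AKI columns thus vary apart from the rest, and a difference in how the columns were made cannot be told apart from the treatment. A second set of untreated kidneys, also labelled IRI and 6 h after reperfusion with the same library names as AKI, stands in the temporal table of the series (IRI 6 h, 4 libraries). It is given beside the groups of genes, because most calls against AKI were not made with it. AKI library 1 correlated at 0.901 to 0.909 with the other AKI libraries (Pearson, log2 counts-per-million across genes), which correlated at 0.952 to 0.963 with each other. BM-MSC library 4 correlated at 0.963 to 0.968 with its group and at 0.978 with UC-MSC library 1. AKI library 1 correlated at 0.927 to 0.930 with Control, above its own group. By Spearman's rho over the names of both tables, AKI libraries correlated at 0.893 to 0.949 with IRI 6 h. BM-MSC library 3 stood at 0.988 to 0.991 with IRI 6 h libraries 2 to 4 and at 0.974 to 0.986 with its own group. Kidney tubule genes were present in all libraries, with the phosphate transporter Slc34a1 at 1382 to 4797 counts-per-million in the 8 libraries. For 99 of the names the counts could not be trusted across tables, among them Havcr1, Lcn2, Gja1 (connexin 43), Sod2, Il6, Mki67 and most protein genes of mitochondrial DNA, and they were left out.

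Stress, protein turnover and injury genes were lower in BM-MSC than in AKI kidneys, and genes of matrix, vessels, podocytes and mitosis were higher. Of 16600 genes tested, 2714 were higher (16.3%) and 2829 lower (17.0%) at an adjusted p under 0.05 (quasi-likelihood test of edgeR, adjusted over all genes by Benjamini-Hochberg, here and for each gene named). With a difference of at least 2-fold as well, 1764 genes were higher (10.6% of those tested) and 1062 lower (6.4%). In 2437 genes (14.7%) all 4 BM-MSC libraries lay above all 4 AKI libraries, and in 2017 (12.2%) all lay below. The median log2 fold change over all genes was 0.002. Upper-quartile scaling moved that median to 0.114, and 60.1% of its calls were rises, against 49% by the scaling used here. The choice of the untreated libraries weighed more. With the 4 IRI 6 h libraries in place of AKI, edgeR called 167 genes higher (1.01%) and 254 lower (1.54%), of which 76 and 127 were called in the same direction against AKI. Another 8 genes higher against AKI were lower here, and 2 lower against AKI were higher. With IRI 6 h libraries 2 to 4 alone, 2 genes were higher and 1 lower (1512 and 1384 at an unadjusted p under 0.05). Leaving out AKI library 1 and BM-MSC library 4 together gave 3925 higher (23.3%) and 3543 lower (21.1%). Each count against AKI is therefore a statement about these AKI libraries. Against Control, BM-MSC kidneys had 1093 genes higher (6.58%) and 393 lower (2.37%), and AKI kidneys 3314 higher (20%) and 2494 lower (15.0%).

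**Figure D1:**
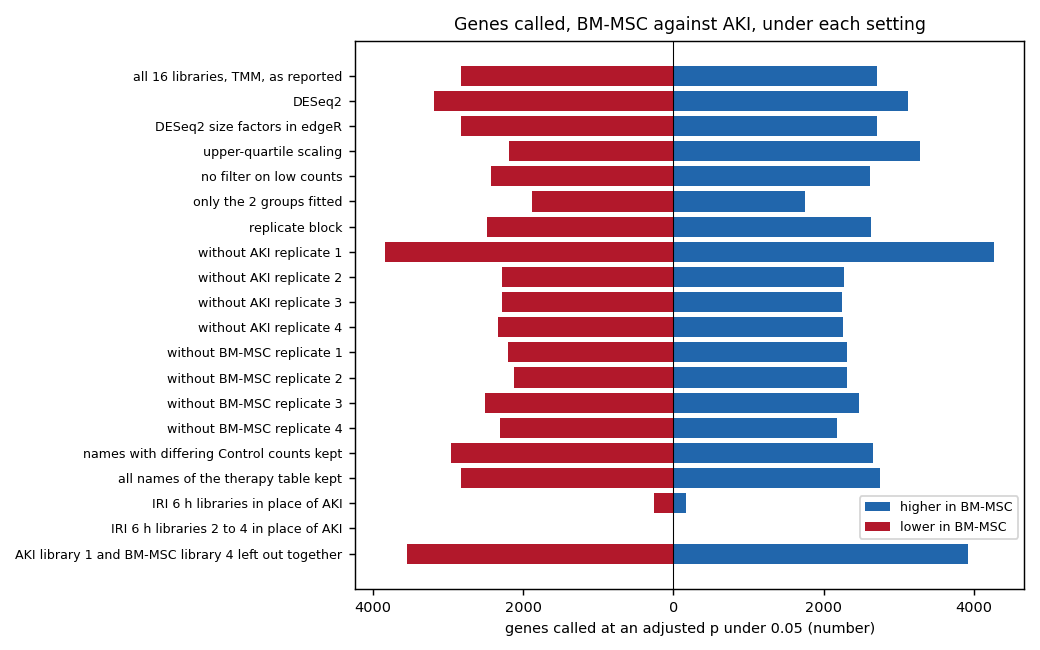
Number of genes called higher (right) and lower (left) in BM-MSC than in the untreated injured libraries, for each way of fitting (y axis), on a linear axis of genes. Bars stand at 2714 and 2829 for the fit as reported and fall to 167 and 254 with the IRI 6 h libraries in place of AKI.

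Cell cycle, heat shock and ATF4 genes have known promoter elements, and 6 of their promoters are shown so that these can be read. Only promoters that hold the motif were shown, and Hmmr is not on the cell cycle list counted below. Each is the 250 bases before the transcription start, taken from RefSeq on GRCm38.p6, which is not the build the authors counted on, and reads toward the gene. Ccnb1 lies at chr13:100786487-100786736, Ccnb2 at chr9:70421555-70421804, Cdc20 at chr4:118437344-118437593 and Hmmr at chr11:40733438-40733687, all on the minus strand. Capitals mark CCAAT, or ATTGG where it lies on the other strand, the box of the NF-Y factor found in many mitotic promoters.
Ccnb1: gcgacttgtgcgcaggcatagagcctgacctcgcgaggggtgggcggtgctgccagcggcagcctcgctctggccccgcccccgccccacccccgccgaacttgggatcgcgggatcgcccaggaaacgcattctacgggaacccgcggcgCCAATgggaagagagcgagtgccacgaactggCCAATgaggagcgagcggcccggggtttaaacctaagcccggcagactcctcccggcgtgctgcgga
Ccnb2: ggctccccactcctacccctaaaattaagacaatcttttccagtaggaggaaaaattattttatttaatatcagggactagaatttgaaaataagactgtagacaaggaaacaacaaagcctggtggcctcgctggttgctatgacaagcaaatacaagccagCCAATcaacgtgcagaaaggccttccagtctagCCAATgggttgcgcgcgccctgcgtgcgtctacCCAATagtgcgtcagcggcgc
Cdc20: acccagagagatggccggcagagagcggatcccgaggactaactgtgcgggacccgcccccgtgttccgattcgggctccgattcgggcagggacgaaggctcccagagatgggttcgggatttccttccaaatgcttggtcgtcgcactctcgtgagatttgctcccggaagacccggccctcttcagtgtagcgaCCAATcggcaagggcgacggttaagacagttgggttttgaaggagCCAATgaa
Hmmr: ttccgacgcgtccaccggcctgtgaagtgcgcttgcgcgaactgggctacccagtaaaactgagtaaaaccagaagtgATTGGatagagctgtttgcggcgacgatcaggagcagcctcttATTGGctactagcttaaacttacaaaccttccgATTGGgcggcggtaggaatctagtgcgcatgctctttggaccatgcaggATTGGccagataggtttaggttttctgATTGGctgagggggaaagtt
Ccnb1 held 2 boxes with their starts 32 bases apart, Ccnb2 held 3 at 33 and 33 bases, Cdc20 held 2 at 45 bases, and Hmmr held 5, the last pair 27 bases apart. Of the 26 cell cycle genes tested, 20 had a promoter in the table and 16 of these (80%) held at least 1 box on either strand, against 37.5% of 27025 genes. At least 2 boxes stood in 12 of them (60%), against 11.5% of all genes. The 16 with a box included the replication genes Pcna and Mcm6, which were not called against AKI. The cell cycle homology letters TTTGAA stood in 5 of 20 (25%), against 18.3%.

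Promoters of the heat shock and ATF4 groups are shown by Hspe1 (chr1:55087898-55088147, plus strand) and Asns (chr6:7693210-7693459, minus strand), chosen after their values were seen, because they hold the motif of their group. Capitals mark the heat shock element GAANNTTC, which reads the same on both strands, in Hspe1, and the ATF4 composite site TGATGNAA in Asns.
Hspe1: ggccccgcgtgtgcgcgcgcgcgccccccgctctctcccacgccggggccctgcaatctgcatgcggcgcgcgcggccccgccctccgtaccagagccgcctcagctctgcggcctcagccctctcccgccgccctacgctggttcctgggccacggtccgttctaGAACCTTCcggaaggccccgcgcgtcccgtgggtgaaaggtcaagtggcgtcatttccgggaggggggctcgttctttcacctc
Asns: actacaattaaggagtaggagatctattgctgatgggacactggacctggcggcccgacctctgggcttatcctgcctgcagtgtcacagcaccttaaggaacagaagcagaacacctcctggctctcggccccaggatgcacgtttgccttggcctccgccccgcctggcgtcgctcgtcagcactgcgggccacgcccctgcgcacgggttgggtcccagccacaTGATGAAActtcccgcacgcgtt
The element of Hspe1 starts 84 bases before the start of transcription and that of Asns 23 bases before it. Of 15 heat shock genes with a promoter, 6 (40%) held the element, against 7.73% of all genes. Of 20 ATF4 genes, 5 (25%) held the composite site, against 3.91%, and of 17 NRF2 targets, 4 (23.5%) held the antioxidant response element TGACNNNGC, against 11.5%. These matches describe letters in a window and show no binding.

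NRF2 targets were lower in BM-MSC kidneys. Of 20 tested, 12 fell, with a median log2 fold change of −1.16 beside 0.002 over all genes. Hmox1, the haem oxygenase that breaks down free haem, stood at 892, 564, 1070 and 458 counts-per-million (CPM, after scaling for library composition) in AKI libraries 1 to 4 and at 56.3, 44.1, 68.8 and 124 in BM-MSC libraries 1 to 4. The highest treated library lay well under the lowest untreated one, at a log2 fold change of −3.35 ± 0.33 (± SE, n = 4 in each group, adjusted p = 7.5e-06). Control libraries ranged from 29.7 to 36.7 CPM, and the treated kidneys remained above them (1.13, adjusted p = 0.031). Srxn1, which restores oxidised peroxiredoxins, went from 741, 667, 807 and 450 CPM in AKI to 105, 101, 133 and 134 in BM-MSC (−2.49 ± 0.27, adjusted p = 1.6e-05), again with no overlap. Gsta2 and Nqo1, enzymes that conjugate and reduce toxic products, fell as well (−1.80 ± 0.34 and −1.67 ± 0.47, adjusted p = 0.0011 and 0.012). AKI library 1 lay low for both, at 266 CPM of Gsta2 and 55.9 CPM of Nqo1, within or under the treated range. The gene of NRF2 itself, Nfe2l2, did not pass (−0.40 ± 0.19, adjusted p = 0.12). Against IRI 6 h, 1 of the 20 targets fell (11 at an unadjusted p under 0.05, median −0.62), and Hmox1 gave −1.67 (adjusted p = 0.054).

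Genes of the ATF4 stress response fell in 13 of 21 cases (median −1.16). Trib3, a pseudokinase that damps this response, was at 9.07, 57.3, 55.2 and 55.1 CPM in AKI and at 2.72, 1.83, 2.05 and 6.44 in BM-MSC kidneys. AKI library 1 was the low one of its group, and it still lay above every treated library (−3.74 ± 0.51, adjusted p = 9.6e-05). Ddit3, the CHOP factor of stress-induced death, went from 77.0, 67.0, 71.2 and 56.8 CPM to 10.8, 8.22, 9.80 and 10.5, which overlaps the Control range of 7.32 to 10.4 (−2.79 ± 0.23, adjusted p = 1.9e-06). Asns, the asparagine synthetase with the ATF4 site, went from 22.4, 119, 111 and 99.4 CPM to 16, 14.3, 15.3 and 25.5 (−2.30 ± 0.42, adjusted p = 0.00075), with AKI library 1 inside the treated range. Atf5, a factor of the mitochondrial stress response, fell by 2.79 (SE 0.44, adjusted p = 0.00028). Relative to IRI 6 h, 3 of 20 genes fell (13 at an unadjusted p under 0.05, median −0.75). Trib3 then gave −1.57 (adjusted p = 0.059) and Ddit3 −0.65 (adjusted p = 0.098).

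Immediate early genes fell in 15 of 25 cases and 1 rose (median −1.61), and AKI library 1 stood far above its group in several of them. Fos stood at 317 CPM there and at 8.35, 6.27 and 10.8 CPM in the other AKI libraries, against 5.33, 3.59, 5.87 and 11.2 in BM-MSC kidneys. Its log2 fold change of −3.71 ± 1.10 (adjusted p = 0.017) became −0.38 (adjusted p = 0.60) without that library. For Fosb the same library gave 142 CPM beside 1.10, 0 and 2.33, and the change of −5.35 ± 1.47 (adjusted p = 0.011) became −0.39 (adjusted p = 0.69). Atf3, a stress-induced repressor, was at 300, 23.9, 28.2 and 17.5 CPM in AKI and at 8.28, 5.78, 8.26 and 9.36 CPM in BM-MSC kidneys, so that all treated libraries lay below all untreated ones (−3.54 ± 0.76, adjusted p = 0.0024). Junb did not pass (0.04 ± 0.36, adjusted p = 0.95). Without AKI library 1 and BM-MSC library 4, 7 of 24 genes fell and 5 rose, beside 21.1% and 23.3% of all genes. Set against IRI 6 h, 5 of 25 fell (20 at an unadjusted p under 0.05, median −1.10).

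Heat shock chaperones fell in 13 of 17 cases (median −1.18). Hsp90aa1, the inducible HSP90, went from 2738, 1910, 2594 and 2031 CPM in AKI to 554, 349, 511 and 580 in BM-MSC kidneys, against 446 to 506 in Control (−2.22 ± 0.20, adjusted p = 3.2e-06). The groups were far apart, and the treated libraries lay around the Control range. Hspe1, the mitochondrial chaperonin subunit with the heat shock element, went from 434, 404, 372 and 294 CPM to 149, 154, 218 and 144 (−1.18 ± 0.17, adjusted p = 0.00013). Hsph1 and Dnajb1, cochaperones of HSP70, fell by 2.19 and 1.78 (SE 0.42 and 0.41, adjusted p = 0.0011 and 0.0037), each highest in AKI library 1 at 1315 and 412 CPM. The inducible HSP70 gene Hspa1a, whose reads may be shared with its near copy Hspa1b, was at 822 CPM in that library and 12.9 to 26.1 in the other AKI libraries. Its change of −3.75 ± 1.05 (adjusted p = 0.012) became −0.28 (adjusted p = 0.60) without it. In the IRI 6 h comparison, 1 of the 17 fell (7 at an unadjusted p under 0.05, median −0.24), and Hsp90aa1 gave −0.15 (adjusted p = 0.62).

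**Figure D2:**
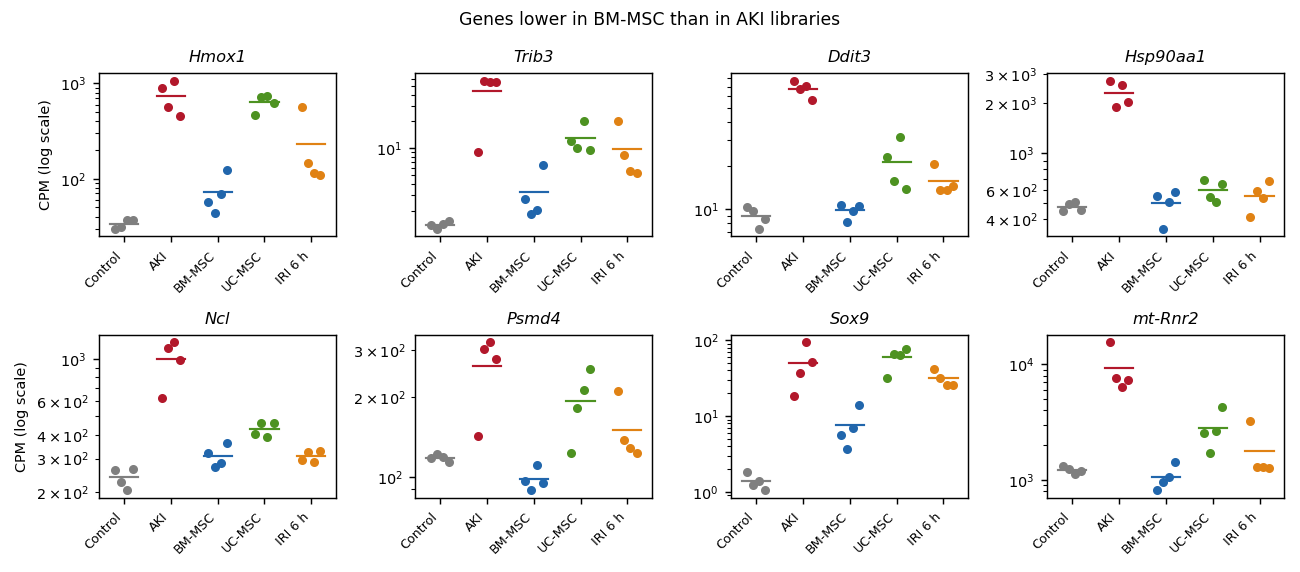
Level of 8 genes (CPM, log axis) in each library of Control, AKI, BM-MSC, UC-MSC and IRI 6 h. Points are libraries and lines are group means of 4. Hsp90aa1 lies between 1910 and 2738 CPM in AKI and between 349 and 580 in BM-MSC kidneys, and the IRI 6 h libraries overlap the latter there but lie above every BM-MSC library in Sox9.

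The machinery that makes and breaks down proteins was lower too. Of 31 proteasome subunit genes, 28 fell (median −0.82), and in 16 the groups did not overlap. Over all genes, BM-MSC lay wholly below AKI in 12.2%. The summed proteasome level was 4130 CPM in AKI library 1, within the Control range of 3937 to 4132.5. It was 6654 to 7804 CPM in the other AKI libraries and 3491 to 4075 in BM-MSC libraries. Psmd4, a ubiquitin receptor of the proteasome, was at 142, 303, 321 and 277 CPM in AKI and at 97.1, 89.4, 111 and 95.1 in BM-MSC kidneys, against 115 to 122 in Control (−1.41 ± 0.23, adjusted p = 0.00038). The ATPase subunit gene Psmc5 and the scaffold gene Psmd11 fell by 1.35 and 1.33 (SE 0.21 and 0.18). Ribosome biogenesis genes fell in 19 of 22 cases (median −0.95). Ncl, the nucleolin gene, went from 627, 1132, 1225 and 989 CPM to 322, 271, 284 and 361 (−1.68 ± 0.19, adjusted p = 2.3e-05), and Gnl3, a nucleolar GTPase gene, fell by 1.45 (SE 0.18, adjusted p = 4.9e-05). Among 51 cytosolic ribosomal protein genes, 18 fell (median −0.57). Rps24 was at 338 CPM in AKI library 1 and 974 to 1300 in the others, against 321 to 420 in BM-MSC kidneys (−1.37 ± 0.29, adjusted p = 0.0023). That library overlapped the treated range. Without it and BM-MSC library 4 the count of falls was 35 of 51, beside 21.1% of all genes. Against IRI 6 h, edgeR called 0 of 31 proteasome genes (20 lower and 0 higher at an unadjusted p under 0.05, median −0.35). It called 3 of 22 biogenesis genes lower (12 lower and 1 higher unadjusted, median −0.31). Of 51 ribosomal protein genes it called 7 lower (43 lower and 0 higher unadjusted), with a median of −0.59 beside −0.57 against AKI. The biogenesis gene Ncl gave 0.01 against IRI 6 h (adjusted p = 0.96).

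**Figure D3:**
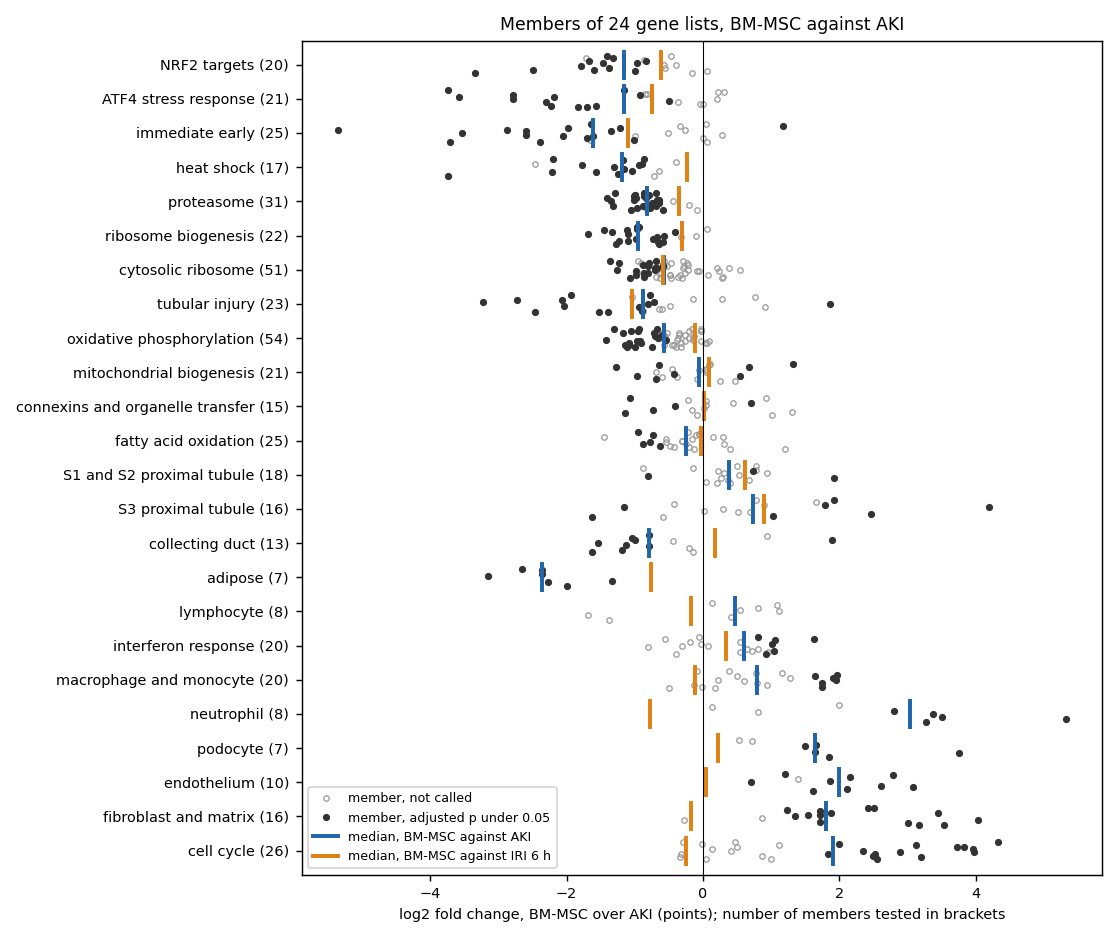
log2 fold change, BM-MSC over AKI, of the tested members of 24 gene lists (y axis, number tested in brackets). Points are genes, filled where the adjusted p was under 0.05. Blue bars are medians against AKI and orange bars medians against IRI 6 h. The matrix median is 1.80 against AKI and −0.18 against IRI 6 h.

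Tubular injury genes fell in 13 of 23 cases and rose in 1 (median −0.88), and 18 of the 23 were above Control in BM-MSC kidneys. Their summed level was 8113 CPM in AKI library 1, under every BM-MSC library (9609 to 17728), and 21398 to 34935 in the other AKI libraries. Without AKI library 1 and BM-MSC library 4, 17 fell and 1 rose, beside 21.1% and 23.3% of all genes. Sox9, a factor of tubular repair, was at 18.5, 36.8, 95.0 and 52.2 CPM in AKI and at 5.56, 3.71, 7.07 and 14.0 in BM-MSC kidneys, against 1.05 to 1.86 in Control (−2.73 ± 0.46, adjusted p = 0.00043). The groups did not overlap. Areg, a ligand of the EGF receptor, and Fosl1, a partner of Jun, fell by 3.23 and 2.46 (SE 0.45 and 0.50, adjusted p = 0.00011 and 0.0017). The TWEAK receptor gene Tnfrsf12a went from 444, 254, 350 and 180 CPM to 58.8, 43.0, 84.3 and 108 (−2.06 ± 0.35, adjusted p = 0.00042). Vcam1, an adhesion molecule of tubule cells that fail to recover, was the member that rose, from 27.7, 17.9, 21.6 and 16.4 CPM to 67.3, 45.7, 71.2 and 120 (1.87 ± 0.37, adjusted p = 0.0013). Krt20, an injury keratin, fell by 1.39 (SE 0.45, adjusted p = 0.025), and without any 1 of AKI libraries 2 and 3 and BM-MSC libraries 1, 2 and 3 it gave between −1.13 and −1.38 with adjusted p of 0.057 to 0.073. Spp1 (osteopontin) and Clu (clusterin), abundant secreted injury proteins, did not pass (−0.88 and −0.15, adjusted p = 0.20 and 0.77), and both remained above Control in BM-MSC kidneys (3.24 and 2.57, adjusted p = 0.0030 and 0.0011). Relative to IRI 6 h, 3 injury genes fell (15 at an unadjusted p under 0.05, median −1.05). Sox9 and Fosl1 were among them (−2.04 and −2.70, adjusted p = 0.034 and 0.042), while Vcam1 gave −0.84 (adjusted p = 0.22).

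Ppargc1a, the gene of the biogenesis regulator PGC1a, was at 73.9, 41.5, 32.7 and 49.8 CPM in AKI and at 70.1, 68.9, 49.3 and 46.7 in BM-MSC kidneys, against 69.3 to 73.1 in Control. The groups overlapped, and the difference of 0.25 ± 0.23 did not pass (adjusted p = 0.43). Set against IRI 6 h, it was lower in BM-MSC kidneys (−0.71, adjusted p = 0.046). With IRI 6 h libraries 2 to 4 alone, Ppargc1a was not called. Of 21 biogenesis genes, 3 rose and 5 fell (median −0.06), near the 16.3% and 17.0% of all genes. Esrrb, an oestrogen-related receptor that works with PGC1a, rose (1.32 ± 0.27, adjusted p = 0.0015). So did Polrmt, the RNA polymerase that transcribes mitochondrial DNA (0.67 ± 0.13, adjusted p = 0.0015). Tfam, which packages mitochondrial DNA, went from 70.6, 104, 98.4 and 84.3 CPM to 56.3, 55.9, 63.9 and 52.8 (−0.64 ± 0.15, adjusted p = 0.0036), and the single-strand binding protein gene Ssbp1 fell by 1.27 (SE 0.19, adjusted p = 0.00017). With IRI 6 h in place of AKI, Tfam, Ssbp1 and Polrmt changed sign, at 0.33, 0.08 and −0.07 (adjusted p = 0.20, 0.67 and 0.71).

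Nuclear genes of the respiratory chain fell in 21 of 54 cases (median −0.57). Uqcrb of complex III went from 279, 400, 357 and 379 CPM in AKI to 124, 132, 153 and 116 in BM-MSC kidneys, against 146 to 206 in Control (−1.43 ± 0.19, adjusted p = 7.7e-05). Cytochrome c, encoded by Cycs, fell by 1.31 (SE 0.18, adjusted p = 9.3e-05) and the complex I gene Ndufs4 by 1.17 (SE 0.21, adjusted p = 0.00059), both without overlap. The ATP synthase gene Atp5b did not pass (−0.03 ± 0.23, adjusted p = 0.95). In the IRI 6 h comparison, edgeR called 0 of the 54 (0 higher and 1 lower at an unadjusted p under 0.05, median −0.12). The ribosomal RNAs of mitochondrial DNA were among the largest falls. For mt-Rnr2 the AKI libraries held 15650, 7684, 6336 and 7400 CPM and the BM-MSC libraries 815, 957, 1053 and 1420, which straddles the Control range of 1136 to 1313 (−3.13 ± 0.33, adjusted p = 1.4e-05), and mt-Rnr1 fell by 3.0 (SE 0.30, adjusted p = 8.0e-06). Together they took 0.848% to 1.87% of the counts in AKI and 0.134% to 0.237% in BM-MSC kidneys, and the part of this share in the other results was not tested. Against IRI 6 h, mt-Rnr2 gave −0.74 (adjusted p = 0.15). On the list of structural noncoding RNAs, 5 of 6 tested fell and 1 rose (median −2.44), beside 17.0% and 16.3% of all genes. In AKI kidneys 5 of them were above Control and 1 was below. Against IRI 6 h, edgeR called 0 of the 6 (1 higher and 3 lower at an unadjusted p under 0.05, median −0.67).

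Of 15 connexin, pannexin, nanotube and mitochondrial motor genes tied to the handover of organelles, 1 rose and 4 fell (median 0.02), which on so few genes is near the 16.3% and 17.0% of all genes. Rhot2, the Miro protein that links mitochondria to motors, went from 56.2, 97.8, 111 and 115 CPM to 43.4, 45.4, 47.4 and 35.6 (−1.14 ± 0.18, adjusted p = 0.00027). Gjb2 (connexin 26) was at 144, 120, 137 and 109 CPM in AKI and at 70.7, 67.6, 65.5 and 38.6 in BM-MSC kidneys (−1.07 ± 0.28, adjusted p = 0.0086), below Control as well (−1.0, adjusted p = 0.037). Rala, a GTPase of nanotube formation, fell by 0.73 (SE 0.12). Myo10, a motor of filopodia, rose by 0.70 (SE 0.23, adjusted p = 0.027), with AKI library 1 inside the treated range, and without any 1 of AKI libraries 2, 3 and 4 and BM-MSC libraries 2 and 4 it gave 0.57 to 0.68 with adjusted p of 0.059 to 0.085. Among 16 genes of mitochondrial dynamics and mitophagy, 6 fell and 1 rose, and the fission gene Dnm1l fell by 0.84 (SE 0.14, adjusted p = 0.00043). Relative to IRI 6 h, edgeR called 0 of the 15 transfer genes (2 higher and 0 lower at an unadjusted p under 0.05) and 0 of the 16 dynamics genes (4 and 1).

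Matrix genes were higher in BM-MSC kidneys, in 14 of 16 cases tested (median 1.80), and in these 14 the groups did not overlap. Over all genes, BM-MSC lay wholly above AKI in 14.7%. Col3a1, a fibrillar collagen, was at 62.6, 69.1, 47.4 and 58.9 CPM in AKI and at 807, 753, 778 and 1556 in BM-MSC kidneys, against 105 to 149 in Control. BM-MSC library 4 held the highest level and the other treated libraries lay close together (4.03 ± 0.42, adjusted p = 1.1e-05). Col1a1 and Col1a2, the chains of type I collagen, rose by 3.54 and 3.45 (SE 0.40 and 0.29). Mgp, an inhibitor of calcification and 1 of the largest rises, went from 38.7, 16, 10.4 and 6.75 CPM to 348, 401, 477 and 597 (4.67 ± 0.47, adjusted p = 8.7e-06). Fbln1, a basement membrane glycoprotein, and Cdh11, a cadherin of mesenchymal cells, rose by 4.34 and 4.25 (SE 0.37 and 0.40). The crosslinking enzyme gene Lox did not pass (0.87 ± 0.37, adjusted p = 0.082). In AKI kidneys several of these genes lay below Control, with Col1a2 at −1.36 (adjusted p = 0.0012) and Mgp at −2.53 (adjusted p = 0.00040). Set against IRI 6 h, edgeR called 0 of the 16 (3 higher and 2 lower at an unadjusted p under 0.05, median −0.18). Col3a1 then gave 0.10 and Mgp 0.04 (adjusted p = 0.88 and 0.96).

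Endothelial genes rose in 9 of 10 cases (median 1.99) and podocyte genes in 5 of 7 (median 1.64). Plvap, which forms the diaphragms of fenestrated capillaries, was at 55.3, 18.8, 26.1 and 16.7 CPM in AKI and at 242, 225, 225 and 295 in BM-MSC kidneys, beside 231 to 249 in Control (3.08 ± 0.30, adjusted p = 7.5e-06). The treated libraries lay near the Control range, and the untreated ones far under it. Tek, the angiopoietin receptor gene, and Vwf, the von Willebrand factor gene, rose by 2.61 and 2.79 (SE 0.44 and 0.39, adjusted p = 0.00041 and 0.00011). Cdh5 (VE-cadherin) stood at 58.7 CPM in AKI library 1 and at 4.98 to 7.46 in the others, against 34.8 to 85.0 in BM-MSC kidneys, and did not pass (1.39 ± 0.59, adjusted p = 0.079). In podocytes, the epithelial cells of the glomerular filter, Tcf21 went from 4.75, 2.46, 1.55 and 1.85 CPM to 35.9, 26.2, 36.2 and 44.0, beside 29.3 to 33.0 in Control (3.75 ± 0.38, adjusted p = 8.9e-06). The factor gene Wt1 and the actin organiser gene Synpo rose by 1.85 and 1.65 (SE 0.48 and 0.43). Summed over the endothelial list, AKI library 1 held 375 CPM, the other AKI libraries 118 to 144, the BM-MSC libraries 684 to 1015 and the Control libraries 732 to 778. In the IRI 6 h comparison, 1 of 10 endothelial genes rose, Tek at 0.71 (adjusted p = 0.047), and edgeR called 0 of 7 podocyte genes (0 at an unadjusted p under 0.05), with medians of 0.05 and 0.23.

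Cell cycle genes rose in 14 of 26 cases (median 1.92), and all 26 were above Control in BM-MSC kidneys. Kif20a, a kinesin of cytokinesis and the largest rise that the naming rule allowed, was at 1.84, 1.49, 1.16 and 1.73 CPM in AKI and at 32.2, 38.9, 47.0 and 43.1 in BM-MSC kidneys, against 2.10 to 3.71 in Control (4.69 ± 0.65, adjusted p = 0.00011). Ccnb1, the cyclin that drives entry into mitosis, went from 0.496, 6.21, 0.776 and 2.87 CPM to 37.3, 42.0, 71.5 and 59.9 (4.34 ± 0.72, adjusted p = 0.00040). Neither gene's groups overlapped. Ccnb2, the anaphase activator gene Cdc20 and the centromere protein gene Cenpf rose by 3.96, 3.98 and 3.82 (SE 0.64, 0.70 and 0.69). Hmmr, a spindle protein that is not on the list and whose promoter held 5 CCAAT boxes, rose by 4.10 (SE 0.73, adjusted p = 0.00066). Abundant genes of DNA replication did not pass. Pcna, the sliding clamp, was at 50, 186, 124 and 107 CPM in AKI and at 65.9, 62.7, 136 and 104 in BM-MSC kidneys (−0.34 ± 0.32, adjusted p = 0.43), and the helicase gene Mcm6 gave −0.01 ± 0.40 (adjusted p = 0.98). Both stood above Control in AKI (1.84 and 1.45, adjusted p = 0.00060 and 0.013) and in BM-MSC kidneys (1.5 and 1.44, adjusted p = 0.0098 and 0.041). Against IRI 6 h, edgeR called 0 of the 26 (0 at an unadjusted p under 0.05, median −0.25), and Ccnb1 gave −0.09 (adjusted p = 0.93).

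**Figure D4:**
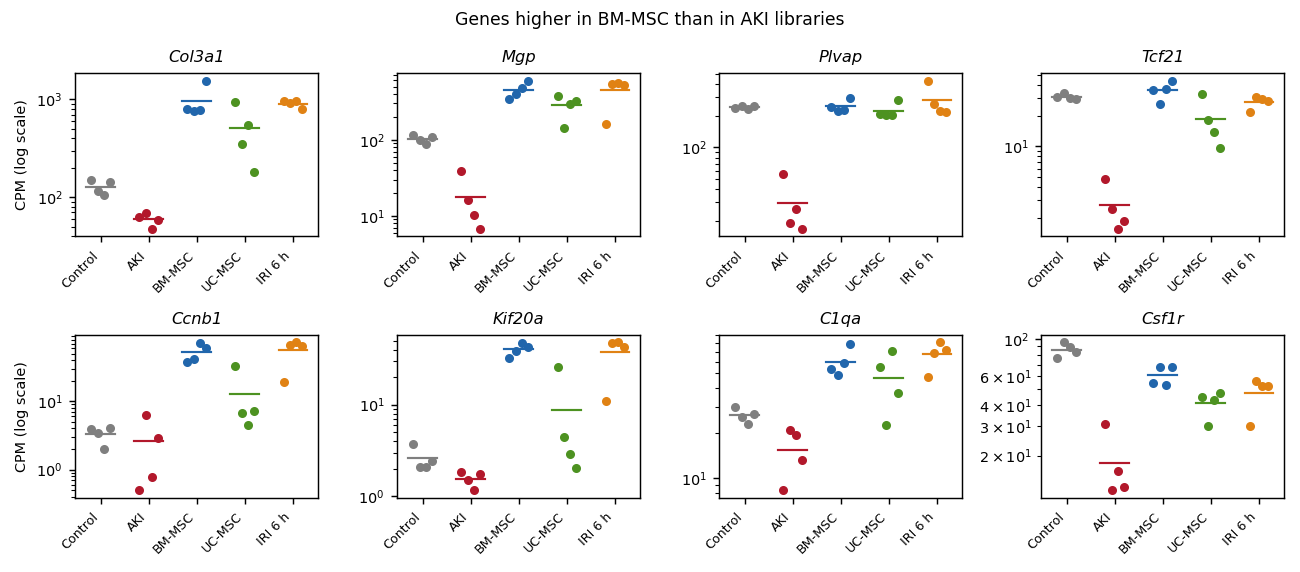
Level of 8 genes (CPM, log axis) in each library of Control, AKI, BM-MSC, UC-MSC and IRI 6 h. Points are libraries and lines are group means of 4. Plvap lies between 16.7 and 55.3 CPM in AKI and between 225 and 295 in BM-MSC kidneys, and the IRI 6 h libraries overlap the BM-MSC range in all 8 genes.

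BM-MSC library 4 stood apart in immune genes. Of 20 macrophage and monocyte genes, 6 rose (median 0.79), beside 16.3% of all genes. The summed list stood at 962 CPM in BM-MSC library 4 and 606 to 647 in the other treated ones. Without BM-MSC library 4 and AKI library 1, 5 rose and 1 fell (median 0.24), beside 23.3% and 21.1% of all genes. Csf1r, the receptor macrophages need to survive, went from 30.8, 12.4, 16.2 and 13.1 CPM to 54.5, 68.0, 53.1 and 67.9, beside 76.3 to 95.8 in Control (1.75 ± 0.24, adjusted p = 0.00011). The complement genes C1qa and C1qc, made by resident macrophages, rose by 1.96 each (SE 0.32 and 0.29). Of 8 neutrophil genes, 5 rose (median 3.04), with the summed list at 437 CPM in BM-MSC library 4 and 17.9 to 30.9 in the other treated libraries. S100a8, a calprotectin subunit gene, was at 107 CPM in that library and at 5.56, 3.96 and 8.66 in the others, against 6.31, 3.43, 2.59 and 0.716 in AKI, and the groups overlapped. Its change of 3.27 ± 0.99 (adjusted p = 0.019) became 0.91 (adjusted p = 0.34) without that library, and 3.18 and 2.94 without AKI library 3 or 4 (adjusted p = 0.050 and 0.054). Csf3r, the G-CSF receptor gene, likewise went from 3.51 ± 1.02 (adjusted p = 0.015) to 0.97 (adjusted p = 0.30) without BM-MSC library 4. The gelatinase gene Mmp9 rose by 5.33 (SE 1.14, adjusted p = 0.0023), at 83.5 CPM in that library and 4.20 to 4.44 in the other treated ones. Of 8 lymphocyte genes, edgeR called 0 (1 higher and 1 lower at an unadjusted p under 0.05) and DESeq2 called 1 lower. Relative to IRI 6 h, edgeR called 0 of the 20 macrophage genes (0 higher and 2 lower at an unadjusted p under 0.05, median −0.11) and 0 of the 8 neutrophil genes (0 and 2, median −0.77).

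Among 17 cytokines and chemokines, 3 rose and 2 fell (median 0.11), beside 16.3% and 17.0% of all genes. Cxcl1, which attracts neutrophils, went from 98.8, 31.2, 43.0 and 28.4 CPM in AKI to 7.66, 4.26, 7.07 and 18.5 in BM-MSC kidneys, above a Control range of 0.446 to 1.84 (−2.42 ± 0.47, adjusted p = 0.0011). Cxcl12, the chemokine that retains CXCR4-bearing cells, was at 52.7, 47.2, 43.0 and 61.1 CPM in AKI and at 225, 234, 196 and 219 in BM-MSC kidneys, beside 211 to 225 in Control (2.10 ± 0.20, adjusted p = 7.2e-06). The treated libraries thus spanned the Control range of Cxcl12 and lay far above the untreated ones. Tgfb1, the profibrotic cytokine gene, and Cx3cl1, the ligand of a macrophage receptor, rose by 1.40 and 0.73 (SE 0.25 and 0.16). Set against IRI 6 h, Cxcl12 rose (0.97, adjusted p = 0.042), whereas Cxcl1 gave 1.29 (adjusted p = 0.074) and Tgfb1 −0.78 (adjusted p = 0.059). Of the 18 cytokine genes tested there, 2 rose and 0 fell (3 and 8 at an unadjusted p under 0.05, median −0.76). Interferon response genes rose in 6 of 20 cases (median 0.60), with Ifi44 at 1.62 ± 0.31 (adjusted p = 0.0011). Of 19 complement and acute phase genes, 6 rose and 2 fell (median 0.11), and C3, the central complement protein, went from 122, 222, 250 and 219 CPM to 842, 369, 481 and 538 (1.46 ± 0.37, adjusted p = 0.0067). In the IRI 6 h comparison, edgeR called 0 of 20 interferon genes (6 higher and 0 lower at an unadjusted p under 0.05) and 0 of 19 complement genes (1 and 5).

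Along the tubule, the S3 segment gave 5 rises and 2 falls among 16 genes (median 0.74) and the S1 and S2 segments 2 and 1 among 18 (median 0.38). Over all genes, 16.3% rose and 17.0% fell. Slc22a13, a urate transporter of the proximal tubule, went from 12.5, 3.23, 8.99 and 9.91 CPM in AKI to 46.7, 75.9, 39.4 and 28.5 in BM-MSC kidneys, below a Control range of 108 to 118 (2.46 ± 0.37, adjusted p = 0.00020). The serpin gene Serpina1f rose by 1.92 (SE 0.33, adjusted p = 0.00045). The S3 genes that fell were the monooxygenase gene Cyp4b1 and the anion transporter gene Slco1a1 (−1.16 ± 0.38 and −1.63 ± 0.59, adjusted p = 0.027 and 0.043). Cyp4b1 gave −0.88 (adjusted p = 0.062) without AKI library 1 and −0.92 (adjusted p = 0.076) without BM-MSC library 4. Slco1a1 lost its call without any 1 of 6 libraries, with −0.89 (adjusted p = 0.18) without AKI library 1. Slc34a1 did not pass (0.21 ± 0.46, adjusted p = 0.75). BM-MSC library 4 held the lowest sums of its group, 2900 CPM over the S3 list and 13533 over the S1 and S2 list. Without it and AKI library 1, 10 S3 genes and 12 S1 and S2 genes rose, with medians of 1.24 and 1.15. Over all genes, 23.3% rose in that setting. Against IRI 6 h, 1 S3 gene rose, Slc22a13 (1.51, adjusted p = 0.045), and edgeR called 0 of the 18 S1 and S2 genes (3 higher and 0 lower at an unadjusted p under 0.05).

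Collecting duct genes fell in 8 of 13 cases and rose in 1 (median −0.79). Atp6v1g3, a proton pump subunit of intercalated cells, went from 95.0, 83.5, 66.3 and 81.7 CPM to 25.8, 26.9, 28.7 and 31.0 (−1.54 ± 0.17, adjusted p = 1.7e-05), and Foxi1, the factor that specifies these cells, fell by 1.14 (SE 0.17, adjusted p = 0.00023). Both had been above Control in AKI (1.08 and 0.77, adjusted p = 0.00021 and 0.0031). Aqp4, a water channel of principal cells, was the member that rose (1.90 ± 0.49, adjusted p = 0.0080). Of 15 thick limb and distal tubule genes, 2 rose and 3 fell (median −0.19), near the shares over all genes. Calb1 and Slc12a3, the calcium binder and the thiazide-sensitive cotransporter of the distal convoluted tubule, fell by 2.40 and 1.35 (SE 0.49 and 0.32), each highest in AKI library 1 at 1274 and 916 CPM. Slc12a1, the cotransporter of the thick limb, rose by 1.61 (SE 0.53, adjusted p = 0.028), and lost its call without any 1 of AKI libraries 2, 3 and 4 and BM-MSC libraries 1 and 2 (1.31 to 1.52, adjusted p of 0.063 to 0.082). Relative to IRI 6 h, 1 collecting duct gene rose, Aqp4 (1.62, adjusted p = 0.038), and Atp6v1g3, Calb1 and Slc12a3 gave −0.27, 0.26 and 0.02 (adjusted p = 0.28, 0.58 and 0.96).

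Of 25 genes of fatty acid oxidation, 5 fell (median −0.25), beside 17.0% of all genes, Hadhb of the trifunctional protein by 0.73 (SE 0.19, adjusted p = 0.0073). Among 16 glycolysis genes, 2 rose and 4 fell (median −0.19), beside 16.3% and 17.0% of all genes. The aldolase gene Aldoa was at 918, 2118, 2106 and 2187 CPM in AKI and at 778, 824, 901 and 808 in BM-MSC kidneys (−1.15 ± 0.23, adjusted p = 0.0013), with AKI library 1 close to the treated libraries. It was also lower against IRI 6 h (−0.67, adjusted p = 0.045). Of 13 hypoxia targets 4 fell (median −0.39), and the vasodilator peptide gene Adm fell by 1.13 (SE 0.26, adjusted p = 0.0039). Cholesterol synthesis gave 2 rises and 3 falls among 19 genes (median 0.08), near those shares. Fdft1, the squalene synthase gene, was at 65.1, 64.6, 65.4 and 67.7 CPM in AKI and at 33.3, 33.3, 36.9 and 35.2 in BM-MSC kidneys (−0.92 ± 0.11, adjusted p = 2.3e-05). Both groups of Fdft1 were tight and far apart. In the renin-angiotensin system 3 of 7 genes rose (median 0.84), the angiotensin receptor gene Agtr1a by 0.84 (SE 0.19), the aminopeptidase gene Enpep by 1.19 (SE 0.28) and the converting enzyme gene Ace by 1.01 (SE 0.33, adjusted p = 0.027). Ace lost its call without any 1 of AKI libraries 2 and 3 and BM-MSC libraries 1 and 2 (0.81 to 1.02, adjusted p of 0.054 to 0.091). Among 11 mouse genes of factors attributed to MSCs, 2 rose (median 0.36), near the 16.3% of all genes. Hgf, the hepatocyte growth factor gene, was at 3.33, 0.129, 0 and 0.716 CPM in AKI and at 9.53, 5.78, 6.95 and 13.6 in BM-MSC kidneys (3.12 ± 0.77, adjusted p = 0.0061). Nos2, the inducible nitric oxide synthase gene, was near the limit of counting, at 0.425, 0.0647, 0 and 0 CPM against 0.738, 1.22, 1.2 and 6.91 (adjusted p = 0.0040). Without AKI library 1 and BM-MSC library 4, 6 cholesterol genes rose and 4 fell, and 5 of the 7 renin-angiotensin genes rose. Of the MSC factors 4 rose and 1 fell. Over all genes, 23.3% rose and 21.1% fell in that setting. Set beside IRI 6 h, edgeR called 0 of 25 fatty acid oxidation genes (1 higher and 0 lower at an unadjusted p under 0.05), 0 of 7 renin-angiotensin genes (3 and 0) and 0 of 11 MSC factors (3 and 2). In that comparison 1 glycolysis and 2 cholesterol genes fell and 1 hypoxia target rose.

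Markers of tissues next to the kidney moved with the comparison too. All 7 adipose genes fell (median −2.36), and their summed level was 584 to 900 CPM in AKI, 147 to 259 in BM-MSC and 255 to 345 in Control kidneys. Fabp4, the fatty acid binder of fat cells, went from 722, 1306, 874 and 1380 CPM to 105, 113, 184 and 253 (−2.71 ± 0.37, adjusted p = 9.4e-05), and Cidea and Plin1, proteins of the lipid droplet, fell by 3.16 and 2.37 (SE 0.43 and 0.38). Set against IRI 6 h, edgeR called 0 of the 7 (0 higher and 5 lower at an unadjusted p under 0.05, median −0.77). Adrenal genes summed to 755 CPM in AKI library 1, 9.83 to 51.6 in the other AKI libraries and 7.24 to 35.0 in BM-MSC kidneys. Star, which feeds steroid synthesis, stood at 389 CPM in that library and did not pass (−3.84 ± 1.49, adjusted p = 0.057). Of 7 adrenal genes, edgeR called 0 (0 higher and 5 lower at an unadjusted p under 0.05) and DESeq2 called 3 lower. Globin genes took 0.0073% to 0.0144% of the counts in AKI and 0.0278% to 0.0543% in BM-MSC kidneys, and Hbb-bs, the adult beta globin gene, rose by 1.35 (SE 0.35, adjusted p = 0.0085). The Y-linked genes Ddx3y and Eif2s3y fell by 1.02 and 0.98 (SE 0.27 and 0.19), while Uty did not pass (0.21 ± 0.23, adjusted p = 0.50), and all 3 were present in every library. The part of fat, adrenal tissue and blood in the other results was not tested.

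**Figure D5:**
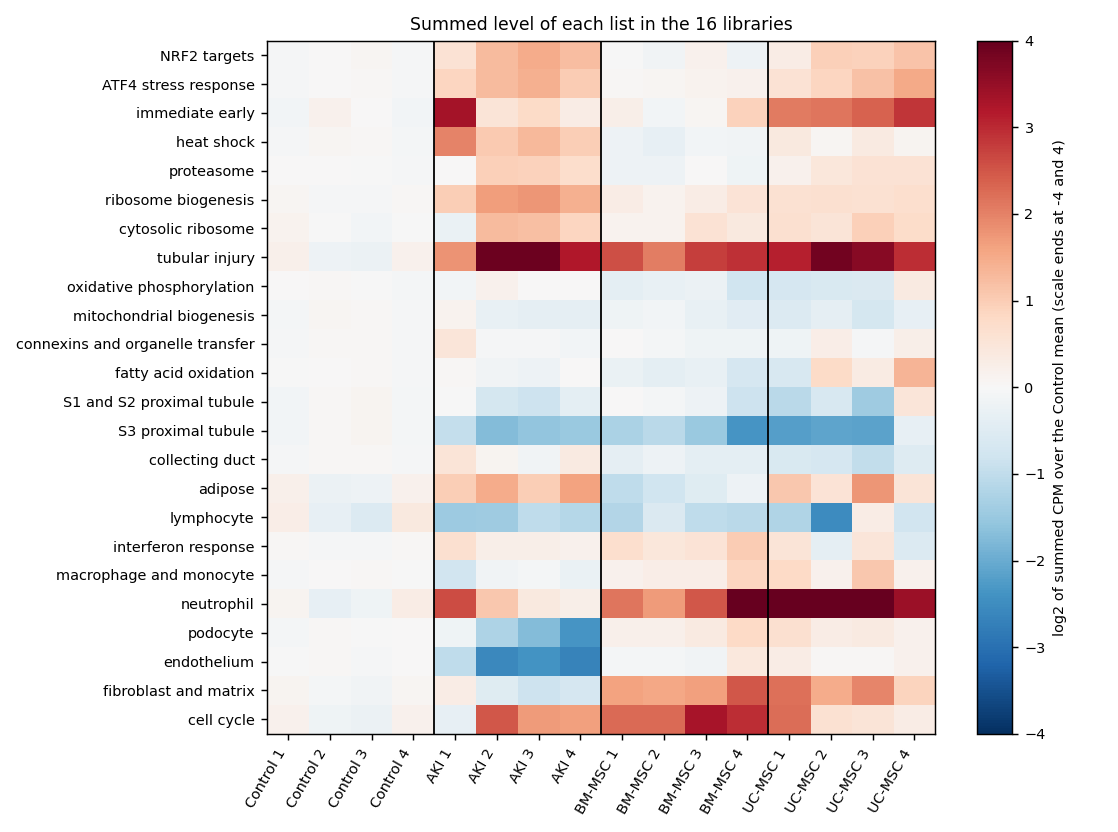
Summed level of the tested members of 24 gene lists (y axis) in each library of Control, AKI, BM-MSC and UC-MSC (x axis), as log2 of the sum of CPM over the Control mean, with the colour scale ending at −4 and 4. AKI library 1 differs from its group in the immediate early and cell cycle lists, and BM-MSC library 4 in the neutrophil list.

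BM-MSC and UC-MSC kidneys were compared directly, since both are set against the same AKI libraries. Of 16600 genes, 1732 were higher in BM-MSC kidneys (10.4%) and 1665 lower (10.0%). Leaving out 1 library at a time moved the rises to between 872 and 2315 and the falls to between 1015 and 1884, with the lowest counts without UC-MSC library 3 (872 rises) and BM-MSC library 1 (1015 falls). Cell cycle genes were higher in BM-MSC kidneys in 15 of 26 cases (median 2.0). Hmmr, which is not on that list, was at 48.6, 41.7, 70.8 and 58.0 CPM there and at 29.0, 5.13, 2.28 and 3.89 in UC-MSC libraries 1 to 4 (2.43 ± 0.67, adjusted p = 0.019). It gave 2.21 and 2.10 without UC-MSC library 2 or 3 (adjusted p = 0.060 and 0.052). Kif4, a kinesin of chromosomes, was higher by 2.43 (SE 0.61, adjusted p = 0.012), and so were Hsd3b9, of the hydroxysteroid dehydrogenases, and B3gat2, a glucuronyltransferase (2.5 ± 0.44 and 2.46 ± 0.37). NRF2 targets were lower in 12 of 20 cases, ATF4 genes in 12 of 21, immediate early genes in 16 of 25 and injury genes in 11 of 23 (medians −1.08, −1.10, −1.98 and −1.48). Hmox1 was at 463, 723, 730 and 631 CPM in UC-MSC kidneys, above every BM-MSC library (−3.12 ± 0.32, adjusted p = 0.00013).

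Krt20 stood at 643, 983, 1265 and 753 CPM in UC-MSC kidneys, and the BM-MSC libraries at 24.2 to 110 (−4.02 ± 0.49, adjusted p = 0.00029). Pdk4, which shuts glucose carbon out of mitochondria, was at 220, 1297, 896 and 3470 CPM in UC-MSC and 75.6, 56.1, 77.3 and 105 in BM-MSC kidneys (−4.23 ± 0.74, adjusted p = 0.0019). Matrix, endothelial and podocyte genes gave 1, 0 and 0 rises and 1, 0 and 0 falls among 16, 10 and 7. All 7 adrenal genes were lower in BM-MSC kidneys, and their sums were 58.7 to 3725 CPM in UC-MSC and 7.24 to 35.0 in BM-MSC libraries. Akr1b7, an adrenal reductase, and Npy, a peptide of chromaffin cells and nerves, were lower by 6.97 and 4.16 on the log2 scale (SE 1.47 and 0.80). Star was lower as well (−5.64 ± 1.61, adjusted p = 0.022) and lost its call without any 1 of BM-MSC libraries 1, 2 and 3 and UC-MSC library 3 (−4.19 to −6.02, adjusted p of 0.052 to 0.076). Adipose genes were lower in 6 of 7 cases. The part of these tissues in the other differences between the treatments was not tested.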

How the data were processed

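Total RNA of whole mouse kidney was sequenced. The authors deposited raw counts per gene name in 1 table for the therapy groups and 1 for the time course. Per the submitters' processing notes, HTSeq, DESeq2 and the GRCm39 (mm39) build were used. The aligner and strand setting are not given in the sources used here. The therapy table held 258140 lines for 55866 names. Repeated lines were reduced to 1 per name, and 99 names were left out (74 whose Control counts differ between tables, 14 whose AKI counts match IRI 6 h, and 11 others). These held 10.9% to 22.8% of the counts of AKI and 11.0% to 14.8% of those of BM-MSC libraries. Genes with near copies, such as Gapdh, Mt2, Rpl24 and Hspa1a, are uncertain, as are genes that overlap others.

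Counts of the 16 libraries of the therapy table were fitted by group in edgeR 4.0.16 (R 4.3.3; TMM scaling, default filter on low counts, quasi-likelihood test, two-sided, adjusted p under 0.05). CPM values use TMM library sizes, log2 CPM values a prior count of 2, and fold changes the default setting of the edgeR fit. Alternatives were DESeq2 1.42.0, its size factors, upper-quartile scaling, no filter, the 2 groups alone, a replicate block, each library left out, other sets of names, and IRI 6 h in place of AKI. The edgeR test of BM-MSC against AKI was run on simulated counts with 200 genes changed by known folds. The other steps were not tested in this way. Members and the 48 lists (870 names) were chosen with earlier results of these data known. Named genes were the 12 largest rises and falls with separate ranges, the 12 most abundant changes, up to 4 called members of a list in each direction and 3 not called, 10 genes of the study's title and injury, and the 6 largest each way against UC-MSC. Hspe1, Asns and genes named so in the text fall outside this rule. Promoters came from RefSeq on GRCm38.p6.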

Additional observations from a re-analysis of the deposited data

Results flagged for a closer look

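Libraries that lay far from the other 3 of their group were looked for in the 118 genes named in the comparison with AKI, in 9 named in the comparison with UC-MSC and in the summed levels of the 48 gene lists. Chance gives about 1 in 20 groups of 4 such a library, and 1 library far from its group in many genes counts many times. AKI library 1 stood apart in 21 of the 118 genes. Its levels there in CPM were 266 for Gsta2, 219 for Nfe2l2, 9.07 for Trib3, 300.4 for Atf3, 142 for Fosb, 317 for Fos, 1315 for Hsph1, 412 for Dnajb1, 822 for Hspa1a, 10181 for mt-Rnr1 and 15650.0 for mt-Rnr2. In the remaining genes they were 120.3 for Myo10, 58.7 for Cdh5, 5.10 for Csf3r, 2804 for Cyp4b1, 918 for Aldoa, 208 for Enpep, 0.425 for Nos2, 389 for Star, 159 for Ddx3y and 371 for Plk3. Its summed list levels stood apart in 12 of 48 lists, at 375 for endothelium, 5351 for immediate early, 423 for interferon response, 1237 for mitochondrial biogenesis, 1383 for connexins and organelle transfer, 5183 for glycolysis, 2701 for hypoxia targets, 1579.5 for circadian clock, 2291 for glucocorticoid targets, 2041 for cholesterol synthesis, 39428 for structural noncoding RNA and 755 for adrenal. AKI library 2 stood apart at 3471 for unfolded protein response, and AKI library 4 at 0.358 for Ctrb1.

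BM-MSC library 4 stood apart in 14 of the 118 genes, at 25.5 for Asns, 38.6 for Gjb2, 1556 for Col3a1, 751 for Col1a1, 769 for Col1a2, 88.1 for Fbln1 and 48.2 for Lox. It also did so at 107 for S100a8, 83.5 for Mmp9, 87.7 for Csf3r, 14.6 for Adm, 6.91 for Nos2, 12.04 for Ripk3 and 13.7 for Gsdmd. Its summed levels were far from its group in 5 lists, at 1015 for endothelium, 962 for macrophage and monocyte, 437 for neutrophil, 5453 for fibroblast and matrix and 1361 for mitochondrial dynamics and mitophagy. BM-MSC library 1 stood apart in 4 genes, at 32.7 for Uty, 114 for Ctrb1, 74.9 for Cpb1 and 109.8 for Reg2. BM-MSC library 2 did so at 318 for Hbb-bs and in the lists at 656 for collecting duct and 612 for red blood cell, and BM-MSC library 3 at 218 for Hspe1. UC-MSC library 1 stood apart in 2 of its 9 genes, at 28.98 for Hmmr and 12.7 for Kif4.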

How the results depend on the processing

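Of the 118 genes named against AKI, 105 were called, and 0 of these changed sign in any setting that kept the AKI libraries. Junb, Clu, Atp5b and Mcm6, which were not called, changed sign in some of them. With the 2 groups fitted alone, 1758 genes were higher and 1878 lower, and 12 of the named genes lost their call. The cause was not tested. Leaving out 1 library at a time gave 2181 to 4267 rises and 2127 to 3832 falls, highest without AKI library 1. Between BM-MSC and UC-MSC the same gave 872 to 2315 and 1015 to 1884. Lower counts, 1066 and 1114 rises without BM-MSC library 1 or 3 and 1028 and 872 without UC-MSC library 2 or 3, moved by over 1.5 times. The falls did so without BM-MSC library 1 or 2 and UC-MSC library 3, at 1015, 1050 and 1081. DESeq2 called 3125 genes higher and 3186 lower. Alternatives chosen after seeing the data were all names kept, IRI 6 h libraries 2 to 4 in place of AKI, and AKI library 1 and BM-MSC library 4 left out together.

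The choice of untreated libraries moved the counts furthest of the settings run. With IRI 6 h in place of AKI, 167 genes were higher and 254 lower, and with IRI 6 h libraries 2 to 4, 2 and 1. The cause was not tested. Of the 105 called genes, 94 lost their call in the first and all 105 in the second. In all, 32 and 29 named genes changed sign, counting only genes called against AKI or in the fit with IRI 6 h. Sign changes of genes called in neither fit are not counted here. With all 4 IRI 6 h libraries, the reversed log2 fold changes were 0.019 for Hsph1, 0.013 for Ncl, −0.84 for Vcam1, −0.71 for Ppargc1a, 0.33 for Tfam, −0.072 for Polrmt, 0.082 for Ssbp1, 0.31 for Dnm1l, 0.023 for Gjb2, −0.0043 for Myo10 and −0.20 for Col1a1. Further ones were −0.054 for Col1a2, −0.19 for Plvap, −0.32 for Synpo, −0.095 for Ccnb1, −0.29 for Cdc20, −0.16 for C1qa, −0.14 for C1qc, −0.59 for S100a8, 1.29 for Cxcl1, −0.78 for Tgfb1 and −0.20 for Cx3cl1, then 0.63 for Slco1a1, 0.26 for Calb1, 0.021 for Slc12a3, 0.077 for Hadhb, −1.02 for Nos2, −0.53 for Hbb-bs, 0.43 for Ddx3y, 0.27 for Eif2s3y, −0.49 for Ripk3 and −0.039 for Gsdmd. With IRI 6 h libraries 2 to 4 they were 0.12 for Hspa1a, −1.11 for Vcam1, 0.20 for Tfam, −0.12 for Polrmt, 0.054 for Ssbp1, 0.21 for Dnm1l, −0.30 for Col1a1, −0.086 for Col1a2, −0.24 for Mgp and −0.18 for Kif20a. Further ones were −0.38 for Ccnb1, −0.18 for Ccnb2, −0.60 for Cdc20, −0.14 for Cenpf, −0.093 for Hmmr, −0.29 for C1qa, −0.30 for C1qc, 1.54 for Cxcl1, −0.66 for Tgfb1 and −0.36 for Cx3cl1, then 0.34 for Slco1a1, 0.35 for Calb1, 0.15 for Slc12a3, 0.074 for Hadhb, −0.38 for Hbb-bs, 0.33 for Ddx3y, 0.24 for Eif2s3y, −0.15 for Ripk3 and −0.030 for Gsdmd.

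The labels do not say whether replicate numbers pair the libraries. The correlations given next cannot decide it, since deviations from the mean of 4 libraries depend on each other. Deviations from the group means of same-numbered AKI and BM-MSC libraries correlated at 0.307, −0.261, 0.439 and −0.232 across genes, and those of UC-MSC and BM-MSC at −0.177, −0.041, 0.023 and −0.55. A fit with the replicate number as a block called 2636 genes higher and 2483 lower against AKI, and 1545 and 1426 against UC-MSC, and 8 of the 118 named genes lost their call. At these depths the smallest levels named, such as those of Nos2, Fosb and Ctrb1 in AKI, rest on few counts.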

Other observations

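Of 17 p53 targets, 1 rose and 5 fell (median −0.34), beside 16.3% and 17.0% of all genes. Gadd45a, a growth arrest gene, was at 165, 165, 144 and 100 CPM in AKI libraries 1 to 4 and at 35.0, 22.8, 42.3 and 41.1 in BM-MSC libraries 1 to 4, with no overlap (−2.02 ± 0.21, adjusted p = 5.8e-06). Plk3, a stress kinase gene, fell by 3.19 (SE 0.87, adjusted p = 0.011), and AKI library 1 held 371 CPM of it beside 13.8 to 46.7 in the other AKI libraries. Without that library it gave −1.03 (adjusted p = 0.11). Of 16 cell death genes, 2 rose and 4 fell (median −0.30), near those shares. The survival gene Bcl2l1 fell by 1.03 (SE 0.26, adjusted p = 0.0074). Ripk3, a kinase of necroptosis, and Gsdmd, the pore former of pyroptosis, rose by 1.69 and 1.38 (SE 0.45 and 0.35), each highest in BM-MSC library 4 at 12.04 and 13.7 CPM. Without that library they gave 1.17 and 1.06 (adjusted p = 0.045 and 0.033). With IRI 6 h in place of AKI they gave −0.49 and −0.04 (adjusted p = 0.47 and 0.95), and 1 p53 target and 1 cell death gene fell. Of 7 glucocorticoid targets, edgeR called 0 (0 higher and 0 lower at an unadjusted p under 0.05) and DESeq2 called 0. Their summed level was 2291 CPM in AKI library 1 and 702 to 839 in the other AKI libraries. Without AKI library 1 and BM-MSC library 4, 4 of the 7 rose (median 0.67), beside 23.3% of all genes. With IRI 6 h, edgeR again called 0 (1 higher and 0 lower at an unadjusted p under 0.05).

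Genes of pancreatic digestive enzymes, named after their values were seen, were high in 1 treated library. Ctrb1, a chymotrypsinogen gene, stood at 114 CPM in BM-MSC library 1 and at 4.20, 1.37 and 0.658 in the other BM-MSC libraries, and was listed at 0 in 3 AKI libraries and at 0.358 CPM in the fourth. The carboxypeptidase gene Cpb1 and the pancreatic gene Reg2 were at 74.9 and 110 CPM in the same library and at most 4.02 and 4.63 in the other treated ones. The part of these reads in other results was not tested.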
